A study of Mus musculus with 6 samples.

Results

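The pacemaker cell genes of the oviduct were described in cultured oviductal muscle cells of mice with and without *Pbrm1*. Kit, Kitl, Ano1, Etv1, Hcn2, Hcn3 and Hcn4 were chosen by name, as rows of the deposited count table whose Ensembl identifier carries one of these symbols, and the 7 were found among 54232 genes. All 7 passed the filter on low counts and were among the 15376 genes tested.

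Interstitial cells of Cajal are mesenchymal cells that lie between smooth muscle cells in the gut and start its slow waves. Similar cells have been described in the oviduct, where rhythmic contraction of the muscle layer moves eggs and embryos. KIT is the receptor tyrosine kinase that these cells need and KITL (stem cell factor) is its ligand. ANO1 is the calcium-activated chloride channel that carries their pacemaker current, and ETV1 is the ETS transcription factor that acts with KIT in the gut cells. HCN channels open on hyperpolarization, are gated by cyclic nucleotides and set the beat of the sinoatrial node of the heart. Kit also marks mast cells and melanocytes, and Kitl is made by granulosa cells of the ovary, so these genes are not specific to pacemaker cells.

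RNA-Seq was performed on primary oviductal muscle cells on day 2 of pregnancy, in 3 libraries labelled WT and 3 labelled *Pbrm1* cKO. PBRM1 is a bromodomain subunit of the PBAF chromatin-remodeling complex. The labels give females of 8 to 12 weeks mated with stud males in both groups, and neither a strain nor the number of animals behind a library. The study made its cKO mice by crossing *Pbrm1* fl/fl with *PR-IRES-cre*, so that deletion took place in cells that express the progesterone receptor, and not in muscle cells as such. The controls are WT in the labels, while a legend in the supplement of the study names *Pbrm1* fl/fl mice, which differ from cKO mice by the cre. Oviducts were digested with enzymes and filtered, and the cells were plated for 4 h and for 2 h more after a change of medium before RNA was taken.

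The libraries held 15390818 to 18947947 counts, and a count of 3, taken as the floor, corresponded to 0.159 to 0.193 CPM (counts scaled to a common library size). *Pbrm1* itself was at 170, 183 and 172 CPM in WT libraries 1 to 3 and at 43.5, 50.7 and 42.7 CPM in cKO libraries 1 to 3, which is 26.0% of the WT level (log2 fold change by edgeR −1.94, SE 0.064, adjusted p = 9.1e-11). *Pgr*, whose locus drives the cre, averaged 174 ± 3.20 CPM over WT libraries and 168 ± 13.8 CPM over cKO libraries (SD, n = 3), a difference within the spread between libraries (edgeR adjusted p = 0.508). Across all genes, 6723 of 15376 were called at an adjusted p under 0.05 (43.7%), 3373 of them higher in cKO (21.9%) and 3350 lower (21.8%). In 8223 genes (53.5%) the WT and cKO values lay apart with no overlap. Smooth muscle markers were abundant in every library, and so were fibroblast markers. The 10 smooth muscle markers summed to 3498 to 3570 CPM in WT and 4272 to 4769 CPM in cKO. The 6 fibroblast markers summed to 3428 to 4009 CPM in WT and 4546 to 5004 CPM in cKO. Markers of epithelium, endothelium and leukocytes were present too.

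The HCN channels showed the largest changes of the 7, so the sequences in front of their starts are given first. A RefSeq promoter entry (GRCm38.p6) was present for 6 of the 7 members, and none for Hcn3. The windows of Kit, Kitl, Ano1 and Etv1 reach into the gene as the deposited table draws it and are not printed. The windows of Hcn2 (chr10:79716384-79716633, plus strand) and Hcn4 (chr9:58822699-58822948, plus strand) hold the 250 bases before the RefSeq start, 5′ to 3′. The Hcn2 window ends directly before the counted gene, which starts at 79716634. The Hcn4 window ends upstream of the counted gene, which starts at 58823412. The first 50 bases after the RefSeq start of Hcn4 are in no annotated transcript of the gene. Each GGGCGG on either strand (the core of a GC box) is in capitals.
Hcn2: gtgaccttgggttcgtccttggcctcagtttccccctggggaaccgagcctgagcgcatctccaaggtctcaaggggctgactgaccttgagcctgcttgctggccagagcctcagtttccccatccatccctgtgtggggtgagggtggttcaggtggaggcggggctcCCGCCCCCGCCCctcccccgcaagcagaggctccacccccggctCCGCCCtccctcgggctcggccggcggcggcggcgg
Hcn4: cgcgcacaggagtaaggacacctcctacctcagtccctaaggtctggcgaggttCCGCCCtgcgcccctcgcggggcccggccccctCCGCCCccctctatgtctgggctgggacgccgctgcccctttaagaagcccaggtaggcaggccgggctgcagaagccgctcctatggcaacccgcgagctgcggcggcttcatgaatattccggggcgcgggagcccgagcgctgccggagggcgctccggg
Both windows have a high GC content, at 70.4% for Hcn2 and 71.2% for Hcn4, against a median of 52.4% over 32851 windows of the same length. The motif occurs 3 times in the Hcn2 window and 2 times in that of Hcn4, and 32.7% of all windows hold it. The ratio of observed to expected CpG is 0.519 for Hcn2 and 0.792 for Hcn4, against a median of 0.373. Among the other members, Kit (GC content 70.8%), Kitl (69.2%) and Ano1 (72.0%) have windows of the same kind with 1, 3 and 4 copies of the motif, whereas the first Etv1 window has a GC content of 46.4% and no copy. The CCAAT box, which 33.8% of all windows hold on either strand, is in none of the members' windows. These matches describe the letters of the windows and not binding.

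Of the 7 genes, 5 were above 1 CPM in all 6 libraries, namely Kit, Kitl, Ano1, Etv1 and Hcn4. Hcn2 and Hcn3 were below 1 CPM in all 6. Of the genes above the limit, Etv1 had the lowest value, 1.18 CPM, followed by Hcn4 with 1.24 CPM in its lowest cKO library. The highest libraries of Hcn2 and Hcn3 were at 0.827 and 0.802 CPM. Between WT and cKO, 4 of the 7 were called against 43.7% of all genes tested, with Kit and Etv1 higher and Hcn2 and Hcn4 lower. Hcn3, Kitl and Ano1 were not called. WT and cKO values lay apart in 5 of the 7 (Kit, Etv1, Hcn2, Hcn3 and Hcn4), against 53.5% of all genes. The median log2 fold change was −0.11 over the 7 and 0.0016 over all genes tested. With 7 genes, 1 call fewer would have put the share called below that of the whole table.

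**Figure D1:**
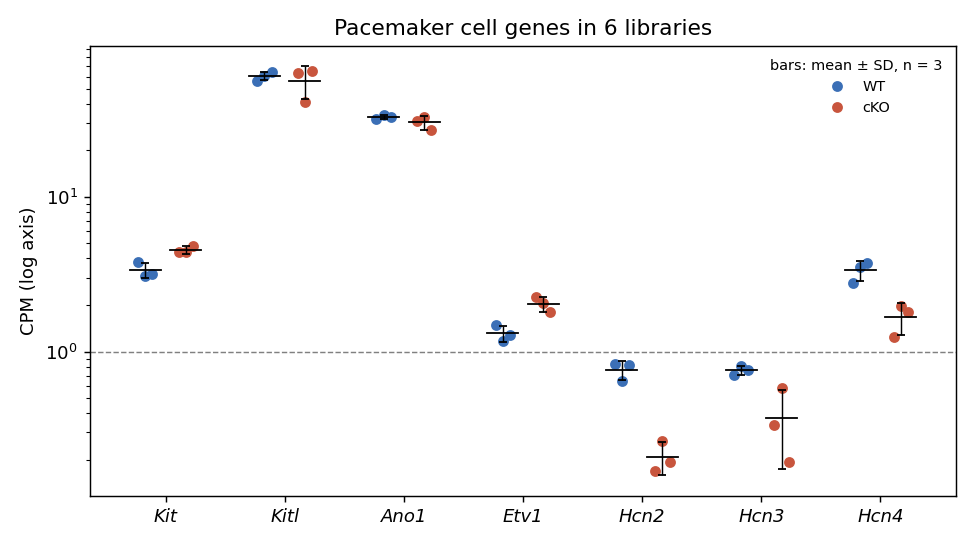
CPM of the 7 pacemaker cell genes (log axis) in each of the 3 WT (blue) and 3 cKO (red) libraries, with bars for mean ± SD and a dashed line at 1 CPM. Kitl and Ano1 lie above 26 CPM with overlapping groups, Kit and Etv1 are higher in every cKO library, and Hcn2, Hcn3 and Hcn4 are lower in every cKO library, with Hcn2 and Hcn3 under the line throughout.

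Hcn4 (ENSMUSG00000032338.9, GRCm38 chromosome 9, 58823412 to 58863175, plus strand), the main HCN channel of the sinoatrial node, was the best counted of the HCN genes. It had 47, 66 and 64 counts in WT libraries 1 to 3 and 22, 37 and 28 counts in cKO libraries 1 to 3. These counts correspond to 2.78, 3.53 and 3.75 CPM in WT and to 1.24, 1.96 and 1.80 CPM in cKO. All cKO libraries were below all WT libraries. The mean fell from 3.35 ± 0.509 to 1.67 ± 0.381 CPM (SD, n = 3), or to 49.8% of WT, with a log2 fold change of −1.01 (edgeR SE 0.21, 95% interval −1.47 to −0.55, adjusted p = 0.00177). The call held in all 14 alternative analyses. In bulk RNA from a mixed culture, fewer cells of a type and less RNA per cell cannot be told apart, here and for the other genes.

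Hcn2 (ENSMUSG00000020331.9, chromosome 10, 79716634 to 79736108, plus strand), a channel of heart and brain that opens faster than HCN4, fell further from a lower level. The counts were 14, 12 and 14 in WT and 3, 5 and 3 in cKO. In CPM these were 0.827, 0.642 and 0.820 in WT and 0.169, 0.265 and 0.193 in cKO, so that cKO libraries 1 and 3 stood at the floor of 3 counts. The groups did not overlap, and the mean went from 0.763 ± 0.105 to 0.209 ± 0.0502 CPM (SD, n = 3), which left 27.4% of the WT level. On the log2 scale the change was −1.82 (edgeR SE 0.41, 95% interval −2.69 to −0.94, adjusted p = 0.0026). The summed counts, 40 in WT and 11 in cKO, give a ratio of 0.278 with an exact counting interval of 0.129 to 0.552 after scaling for depth. The call held in all 13 alternatives that tested the gene, although a gene at this level has few reads behind it and is left untested when at least 10 counts are asked for in every library.

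Hcn3 (ENSMUSG00000028051.10, chromosome 3, 89146074 to 89160196, minus strand), an HCN channel of the nervous system with little response to cyclic nucleotides, was at 0.709, 0.802 and 0.761 CPM in WT (12, 15 and 13 counts). In cKO it was at 0.337, 0.584 and 0.193 CPM (6, 11 and 3 counts). Every cKO library was below every WT library, but the cKO libraries were spread more widely than those of WT. The means of 0.757 ± 0.0465 and 0.371 ± 0.197 CPM (SD, n = 3) give a log2 fold change of −0.98 (SE 0.40, 95% interval −1.83 to −0.12), and the edgeR adjusted p of 0.0612 missed the threshold. Without cKO replicate 2 the log2 fold change was −1.46 and the gene was called (adjusted p = 0.0199), as it was with limma-voom (−1.06, adjusted p = 0.0433). Hcn3 shares 711 exon bases (17.1%) with Pklr on the opposite strand, but Pklr had 1 to 3 counts per library and counting was stranded.

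The HCN transcripts are similar in part, with 82.6% identity between Hcn2 and Hcn4 over 1623 aligned bases. This is below the 95% over at least 100 bases by which near-copies were sought. Shorter stretches were not examined, so an exchange of reads within them was not tested. The summed level of the 3 genes per length was 0.884, 0.971 and 1.05 CPM per kb of exon in WT and 0.336, 0.544 and 0.401 CPM per kb in cKO. The highest cKO library was well below the lowest WT library, and the means were 0.969 ± 0.0843 and 0.427 ± 0.106 CPM per kb (SD, n = 3), a log2 difference of −1.21 (exact permutation test, two-sided, p = 0.1, the smallest p that 3 against 3 allows). Hcn4 made up most of the sum in every library, with 51.4% to 59.4% in WT and 58.9% to 73.4% in cKO. The share of Hcn2 was 20.7% to 29.3% in WT and 15.05% to 15.7% in cKO. Of the HCN partners, Pex5l (TRIP8b, an accessory subunit) had 4 to 8 counts per library and Kcne2 was at 0 in all 6.

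**Figure D2:**
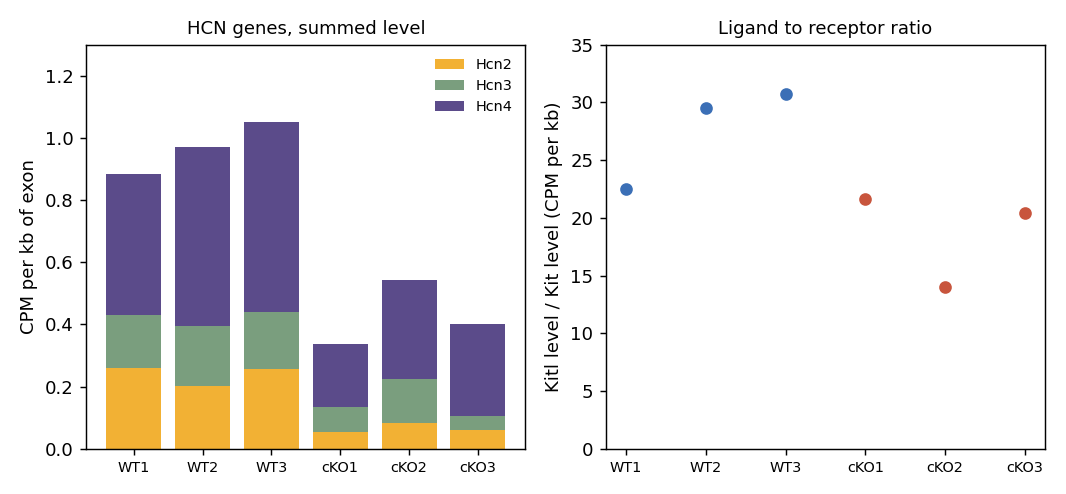
Left, level of Hcn2, Hcn3 and Hcn4 in CPM per kb of exon, stacked for each library from an axis that starts at 0. Right, ratio of the Kitl level to the Kit level (both in CPM per kb) in each library, WT in blue and cKO in red. The HCN sum is 0.884 or more in each WT library and 0.544 or less in each cKO library, and the ligand to receptor ratio is 22.5 to 30.7 in WT and 14.02 to 21.7 in cKO.

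Kit (ENSMUSG00000005672.12, chromosome 5, 75574916 to 75656722, plus strand), the receptor, was at 3.78, 3.10 and 3.16 CPM in WT libraries 1 to 3. The cKO libraries were at 4.39, 4.40 and 4.83 CPM, each above the highest WT library. The mean rose from 3.35 ± 0.377 to 4.54 ± 0.249 CPM (SD, n = 3), 136% of WT, with a log2 fold change of 0.44 (edgeR SE 0.15, 95% interval 0.12 to 0.76, adjusted p = 0.0297). That call stood close to the threshold. It was lost in 5 of 14 alternatives, with an adjusted p of 0.116 by DESeq2, 0.106 without WT replicate 2, 0.0884 without WT replicate 3, 0.0561 without cKO replicate 1 and 0.0914 without cKO replicate 3, while the log2 fold change stayed between 0.38 and 0.53.

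Markers of mast cells and melanocytes, which depend on KIT, were read beside it. Of 10 mast cell markers, 8 were below 1 CPM in all 6 libraries, Mrgprb1 was at 0 in all, and the protease Cpa3 and the IgE receptor chain Fcer1a had at most 2 counts in a library. The summed level of the list, 72.8 to 86.0 CPM in WT and 67.1 to 75.7 CPM in cKO, was nearly all from Gata2, which stromal and endothelial cells also express (76.0 ± 6.90 and 65.7 ± 4.41 CPM, SD, n = 3). Hdc, the histidine decarboxylase of mast cells and some other cells, was the other marker above 1 CPM, at 4.14, 2.99 and 4.27 CPM in WT and 3.94, 4.51 and 4.57 CPM in cKO, near the level of Kit in CPM and not called (log2 fold change 0.20, edgeR adjusted p = 0.37). Tpsab1, a mast cell tryptase, had 1 to 10 counts per library. The part of mast cells in the Kit result was not tested. All 5 melanocyte markers were below 1 CPM in every library, Tyr and Tyrp1 were at 0 in all, Dct and Mlana had at most 1 count, Pmel made up most of the list, and the sum was 0.267 to 0.878 CPM in WT and 0.212 to 0.675 CPM in cKO.

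Kitl (ENSMUSG00000019966.18, chromosome 10, 100015630 to 100100416, plus strand), the ligand, was the most abundant of the 7. It was at 56.6, 60.7 and 64.5 CPM in WT and at 63.0, 41.0 and 65.2 CPM in cKO. cKO libraries 1 and 3 lay within or just above the WT range, and cKO library 2 was alone below it. The means of 60.6 ± 3.96 and 56.4 ± 13.4 CPM (SD, n = 3) differed by less than the spread between libraries (log2 fold change −0.11, edgeR SE 0.13, 95% interval −0.38 to 0.17, adjusted p = 0.527). Without cKO replicate 2 the sign turned and the log2 fold change was 0.087 (adjusted p = 0.269). The same library was the lowest of the cKO libraries for Inha, the inhibin alpha subunit of granulosa cells. Inha was at 7.75 CPM there, against 16.3 and 15.6 CPM in cKO libraries 1 and 3. Unlike Kitl, Inha was below WT (25.0 ± 2.93 CPM, SD, n = 3) in every cKO library. Another granulosa marker was highest in cKO library 2, with 1.70 CPM against 1.24 and 0.45 CPM in cKO libraries 1 and 3. Of the 6 granulosa markers, Inha, Amhr2 and Nr5a1 fell in cKO, the summed level was 38.7 to 42.5 CPM in WT and 14.8 to 24.7 CPM in cKO, and Fshr and Cyp19a1 had 6 counts or fewer in every library. Their part in the Kitl and HCN results was not tested.

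Per length, Kitl exceeded its receptor in every library. The ratio of the Kitl level to the Kit level was 22.5, 29.5 and 30.7 in WT and 21.7, 14.02 and 20.4 in cKO. The lengths used are those of all exons, 8911 bases for Kit and 5911 for Kitl. The longest transcripts have 5241 and 5648 bases, so the size of the ratios depends on the length used. The log2 difference between the groups does not. The groups were separated by a small gap between WT library 1 and cKO library 1. Mean ratios were 27.6 ± 4.42 and 18.7 ± 4.09 (SD, n = 3), a log2 difference of −0.57 (exact permutation test, two-sided, p = 0.1, the smallest p that this design allows). Leaving out single libraries gave log2 differences of −0.71 to −0.38. The smallest was that without cKO replicate 2, the library with the lowest Kitl level (exact permutation p = 0.2).

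Ano1 (ENSMUSG00000031075.18, chromosome 7, 144588549 to 144751974, minus strand), the chloride channel used to mark interstitial cells of Cajal, was at 31.8, 33.7 and 32.7 CPM in WT. It was at 31.2, 32.9 and 26.9 CPM in cKO, and the groups overlapped. Means of 32.8 ± 0.973 and 30.3 ± 3.11 CPM (SD, n = 3) gave a log2 fold change of −0.11 (edgeR SE 0.076, 95% interval −0.27 to 0.06, adjusted p = 0.277). The interval leaves room for a decrease to 0.27 below WT on the log2 scale and for no change. ANO1 is also made by epithelial cells and by some smooth muscle. Of 8 epithelial markers, 5 rose in cKO, by 0.17 to 1.07 on the log2 scale. Krt8, Krt18 and Ovgp1, among the most abundant, rose least (0.18, 0.17 and 0.17). The call of Ovgp1 was lost by DESeq2 (adjusted p = 0.0638) and in other alternatives. Those of Krt8 and Krt18 were lost without WT replicate 1 (edgeR adjusted p = 0.0737 and 0.0868), among others. The summed level of the list was 766 to 833 CPM in WT and 904 to 1008 CPM in cKO. The part of epithelial cells in the Ano1 level was not tested.

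Etv1 (ENSMUSG00000004151.17, chromosome 12, 38779380 to 38870484, plus strand), the transcription factor, was at 1.48, 1.18 and 1.29 CPM in WT (25, 22 and 22 counts). The cKO libraries were at 2.25, 2.07 and 1.80 CPM (40, 39 and 28 counts), each above every WT library. The mean rose from 1.31 ± 0.152 to 2.04 ± 0.225 CPM (SD, n = 3), 155% of WT, with a log2 fold change of 0.64 (edgeR SE 0.22, 95% interval 0.17 to 1.12, adjusted p = 0.0308). This call was lost in 6 of 14 alternatives, with an adjusted p of 0.132 by DESeq2, 0.05 with no filter on low counts, 0.109 without WT replicate 2, 0.0759 without WT replicate 3, 0.106 without cKO replicate 1 and 0.0557 without cKO replicate 2, and the log2 fold change ranged from 0.56 to 0.73. Of the longest Etv1 transcript, 21.8% is at least 95% identical to the predicted gene Gm5454, which had 3 to 9 counts per library, so that a few reads could have been lost or divided between them.

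**Figure D3:**
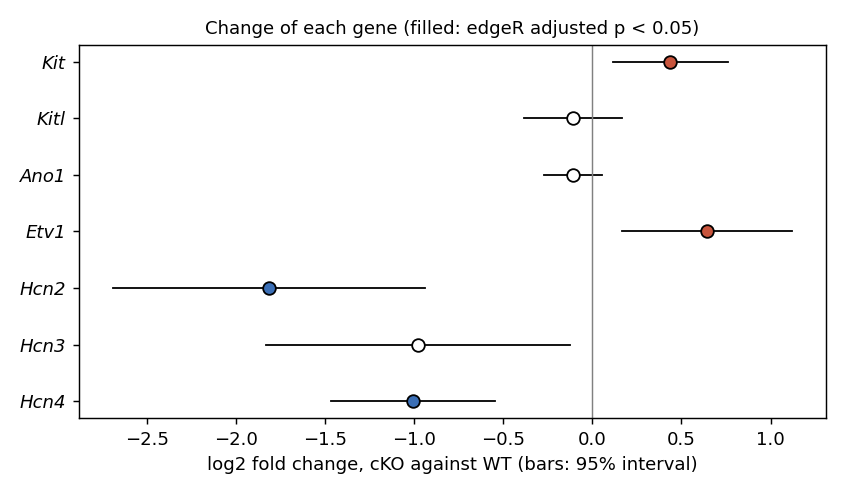
Log2 fold change of each of the 7 genes, cKO against WT, with 95% intervals from the edgeR fit. Filled points passed an adjusted p of 0.05 (red higher, blue lower in cKO) and open points did not. Kit and Etv1 lie to the right of 0, Hcn2 and Hcn4 to the left, Kitl and Ano1 span 0, and the interval of Hcn3 ends at −0.12 without a call after adjustment.

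When levels were compared between genes per length, the order in WT was Kitl (10.2 CPM per kb), Ano1 (5.25), Hcn4 (0.548), Kit (0.376), Hcn2 (0.239), Hcn3 (0.182) and Etv1 (0.0988), and none of the 6 neighboring pairs overlapped in their ranges. Kitl was above 68.4% and Ano1 above 51.2% of all genes tested over the 6 libraries, while Kit was above 10.8% and Hcn4 above 9.79%. Hcn2, Hcn3 and Etv1 were each above fewer than 3% of them. In cKO the order was Kitl (9.54 CPM per kb), Ano1 (4.86), Kit (0.509), Hcn4 (0.272), Etv1 (0.153), Hcn3 (0.0894) and Hcn2 (0.0654). By this measure Kit and Hcn4 exchanged places between the groups, and Etv1 moved from below to above Hcn3 and Hcn2. The length used is that of all exons of a gene, 8911 bases for Kit and 13296 for Etv1. Their longest transcripts have 5241 and 6576 bases, while both lengths are 6118 for Hcn4. The places of Kit and Etv1 in either order therefore depend on the length used. In cKO the ranges of 2 of the 6 neighboring pairs overlapped, Etv1 with Hcn3 and Hcn3 with Hcn2.

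The other genes of these pathways were read from lists of 59 genes, of which 45 were tested. They comprised 19 genes of KIT signaling, 6 further markers of interstitial cells of Cajal, 9 other anoctamins and both relatives of Etv1. The HCN partners, 6 cardiac transcription factors read for the pacemaker and 14 genes of calcium pacemaking made up the rest. In all, 31 of the 45 were called (68.9%), against 43.7% of all genes, with 19 higher and 12 lower in cKO. These shares were not matched for expression level, and a gene with more counts is called more easily. Leaving out single libraries gave 26 to 33 calls.

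All 19 KIT signaling genes were tested, and 10 rose and 4 fell, with a median log2 fold change of 0.13. Ptpn6, a tyrosine phosphatase that restrains KIT, rose from 10.6 ± 0.562 to 17.4 ± 1.06 CPM (SD, n = 3), with edgeR giving 0.71 on the log2 scale (SE 0.089, adjusted p = 2.8e-05). Jak2, a kinase downstream of cytokine receptors, rose from 79.6 ± 2.41 to 119 ± 6.18 CPM (0.58). Mitf, the transcription factor of melanocytes and mast cells, rose from 27.8 ± 1.36 to 37.7 ± 1.14 CPM (0.44). Pik3r1, the regulatory subunit of PI3-kinase that binds KIT, Lyn, a SRC-family kinase, and Gab2, an adaptor, rose by 0.43, 0.40 and 0.38 on the log2 scale. Without cKO replicate 1, 9 of the 19 genes were called in place of 14. Ptpn6 and Lyn are abundant in leukocytes, and all 5 leukocyte markers tested rose, by 0.46 to 1.02 on the log2 scale. Among them Lyz2 and Adgre1 both rose by 0.46 and Csf1r by 0.59. The summed level of the leukocyte list was 622 to 675 CPM in WT and 872 to 946 CPM in cKO. The part of leukocytes in these results was not tested.

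The further markers of interstitial cells of Cajal did not move one way. Cd34, which marks the related fibroblast-like cells and endothelium, rose from 30.7 ± 1.69 to 65.7 ± 7.92 CPM (log2 fold change 1.10, edgeR adjusted p = 2.8e-07). Cd44, a hyaluronan receptor, fell from 857 ± 13.3 to 553 ± 51.9 CPM (−0.63), and Slc12a2, the chloride importer that loads the cells for ANO1, fell from 95.7 ± 2.20 to 75.9 ± 2.68 CPM (−0.33). Thbs4 was not called. Gpr20 had 0 or 1 count per library, and Prkcq had 1 to 15 counts and was not tested. Of 6 fibroblast markers, 3 rose as Cd34 did, among them Pdgfra by 0.82 and Dcn by 0.92 on the log2 scale. Another 1 fell (log2 fold change −0.65), and 2, among them Col1a1, were not called. Their summed level was 3428 to 4009 CPM in WT and 4546 to 5004 CPM in cKO, and the part of fibroblasts was not tested.

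Among the other anoctamins, 6 of 9 were tested, and 2 rose and 2 fell. Ano3, a family member expressed in brain, fell from 4.26 ± 0.521 to 1.15 ± 0.126 CPM (SD, n = 3), a log2 fold change of −1.88 (edgeR SE 0.20, adjusted p = 5.1e-06), close in size to that of Hcn2. Ano10 rose from 40.2 ± 1.51 to 53.9 ± 1.96 CPM (0.42) and the scramblase Ano6 from 182 ± 2.07 to 215 ± 7.11 CPM (0.24). Ano8 fell from 13.96 ± 0.284 to 10.9 ± 0.789 CPM (−0.36). Ano2, the other classical calcium-activated chloride channel, had 1 to 3 counts per library.

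Both relatives of Etv1 rose with it. Etv5 rose from 19.7 ± 1.08 to 28.9 ± 2.17 CPM (log2 fold change by edgeR 0.55, SE 0.078, adjusted p = 7.2e-05) and Etv4 from 10.4 ± 0.480 to 13.7 ± 0.816 CPM (0.39, SE 0.093, adjusted p = 0.00394). These ETS factors of the PEA3 group are known targets of growth factor signaling through ERK. Both kept their call in all alternatives, which Etv1, with fewer reads, did not.

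Of the 6 cardiac transcription factors read for the pacemaker, not all of which promote it, 4 were at or near 0. Tbx3 was at 69.3, 75.8 and 65.7 CPM in WT and 64.0, 70.7 and 51.7 CPM in cKO, and was not called (log2 fold change −0.17, edgeR adjusted p = 0.138). It was called without cKO replicate 2 (−0.27, adjusted p = 0.0103), with no filter on low counts (adjusted p = 0.0133) and under a replicate block (adjusted p = 0.0205). Tbx18 was at 2.47 ± 0.237 and 2.11 ± 0.322 CPM (SD, n = 3) and was not called either. Shox2, Isl1 and Tbx5 had 7 counts or fewer in every library, and Nkx2-5 was at 0 in all 6.

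The calcium genes changed in both directions, with 4 higher and 4 lower of 12 tested. Cacna1g, a T-type calcium channel of pacemaker cells, rose from 12.4 ± 0.954 to 29.0 ± 3.05 CPM (log2 fold change by edgeR 1.23, SE 0.093, adjusted p = 2.9e-07). The L-type channels Cacna1d and Cacna1c rose by 0.63 and 0.27 on the log2 scale, although the call of Cacna1d was lost by DESeq2 (adjusted p = 0.0502) and without cKO replicate 2 (0.0539). Slc8a1, the sodium-calcium exchanger, rose from 22.0 ± 1.41 to 26.5 ± 0.655 CPM. The IP3 receptors Itpr2 and Itpr3, which release stored calcium, fell from 29.1 ± 2.85 to 19.6 ± 1.63 CPM (−0.57) and from 46.5 ± 3.78 to 36.1 ± 1.96 CPM (−0.37). Ryr2, the ryanodine receptor of the heart, was below 1 CPM in all 6 libraries and was not called (log2 fold change −0.91, adjusted p = 0.0639), except without cKO replicate 2 (−1.25, adjusted p = 0.0352).

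**Figure D4:**
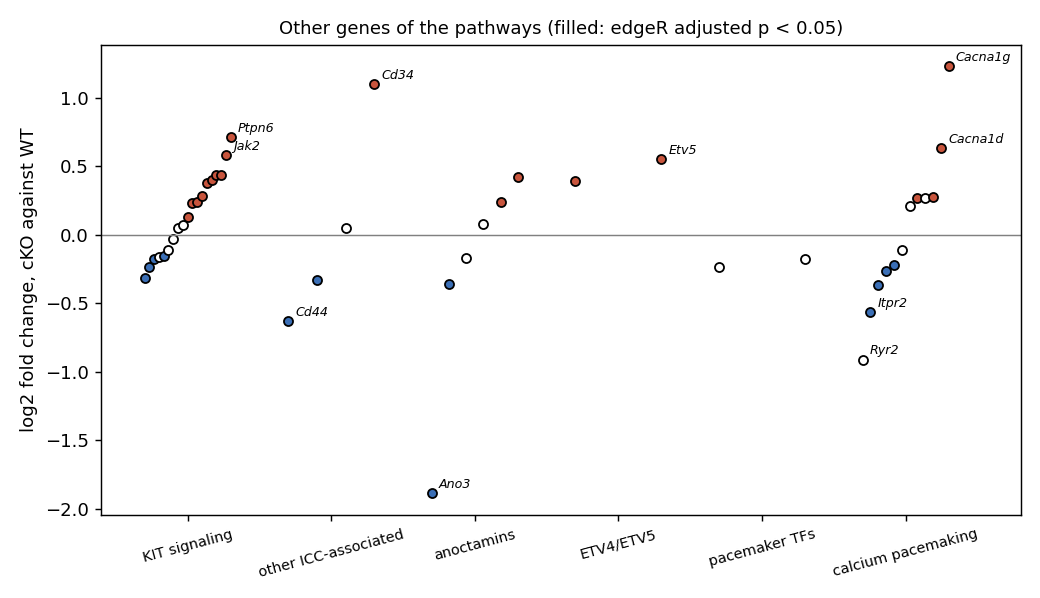
Log2 fold change, cKO against WT, of the 45 tested genes of the pathway lists, 1 point per gene, ordered within each list. Filled points passed an edgeR adjusted p of 0.05 (red higher, blue lower in cKO), and the genes with the largest changes are labelled. Cd34 and Cacna1g rise by over 1 and Ano3 falls by 1.88 on the log2 scale, both relatives of Etv1 rise, the 2 pacemaker transcription factors tested are open points below 0, and the other lists hold points on both sides of 0.

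Neural and glial markers were examined because HCN channels are also neuronal. Of 8 such markers, 7 were below 1 CPM in all 6 libraries, among them Sox10 and Prph, and Snap25 had at most 1 count. Uchl1, which other cells also express, made up nearly the whole sum and fell from 68.2 ± 3.06 to 41.2 ± 2.66 CPM (SD, n = 3; log2 fold change −0.73, edgeR adjusted p = 7.6e-07). The summed level was 66.7 to 73.0 CPM in WT and 39.4 to 45.2 CPM in cKO, and the part of such cells in the HCN results was not tested. Of 10 smooth muscle markers, 5 were higher in cKO, 1 was lower and 4 were not called. The most abundant were among those that rose, namely Des (239 ± 5.06 to 554 ± 47.0 CPM), Tagln (1598 ± 22.1 to 2000 ± 60.1 CPM) and Acta2 (1287 ± 33.5 to 1536 ± 131 CPM). Of 7 endothelial markers, Vwf rose, Kdr fell and the other 5, among them Pecam1 and Emcn, were not called. The summed level was 336 to 355 CPM in WT and 272 to 280 CPM in cKO. Kdr, the only one called lower, went from 182 ± 6.61 to 99.4 ± 11.3 CPM (SD, n = 3), so that the lower sum came from this gene. The 8 oocyte markers summed to 0.827 to 1.02 CPM in WT and 0.515 to 1.24 CPM in cKO, nearly all from Gdf9, with Zp2, Zp3, Figla and Oosp1 at 0 in all libraries.

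Genes with the most similar profile over the 6 libraries were found by the root mean square distance of log2 CPM values centered on each gene's mean, among 12380 protein-coding genes of at least 1 CPM. For Etv1 they were Ptpdc1 (0.0272), its relative Etv5 (0.0412) and Thrb (0.0439). The closest to Kit were Dach1 (0.0244), Lrrc3 (0.029) and Loxl1 (0.0313). Ano1 was nearest to Ash1l (0.0154), Osbp (0.0197) and Tial1 (0.0202). The nearest to Hcn4 were Cavin4 (0.0748), Ndst3 (0.0861) and Il23a (0.108), farther away than those of Kit or Ano1. Kitl, with its low cKO library 2, was nearest to Cfap45 (0.0643), Prox1 (0.0742) and Sfrp4 (0.0746). With 6 libraries and so many candidates, such distances are a description only.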

How the data were processed

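RNA-Seq reads of 6 libraries (3 WT, 3 cKO) were deposited by the authors as 1 table of raw counts per gene. The header of the file names featureCounts 1.6.4 on exons, set to reverse-stranded counting with the other options at their defaults, so that reads of several places or several genes were left out, on the GENCODE M 18 annotation. The submitters' processing notes name cutadapt, HISAT2 and GRCm38.p5. Coordinates are those of the table, and symbols came from an annotation of the same build (54079 of 54232 genes).

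Counts were tested with edgeR 4.0.16 in R 4.3.3 (two-sided quasi-likelihood F-test, TMM, filterByExpr, Benjamini-Hochberg adjustment over all genes tested, threshold 0.05). The study used DESeq2 for its uterine libraries, and DESeq2 1.42.0 was an alternative here, as were limma-voom (limma 3.58.1), other scalings and filters, a stricter threshold, a replicate block and leaving out single libraries. The script was tested on simulated data. CPM use TMM-normalized library sizes, and levels between genes are CPM per kb of exon length. The SE is the absolute log2 fold change divided by the square root of F. Profile distances used log2(CPM + 0.5). Near-copies were sought with BLAST 2.17.0 at 95% identity over at least 100 bases.

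Members and lists were chosen with earlier results of these data known. Named were all members, Pbrm1, up to 6 called genes of each pathway list by size of change, up to 3 of the most abundant markers of each cell type and those at 0, and the 3 nearest profiles of members of at least 1 CPM. The cre driver Pgr and further members of these lists at few counts or close to the threshold (such as Ryr2, Tbx3 and Vwf) were named after their values were seen. Some genes of the lists are not reported by name here. Replicate libraries were more different from each other than counting noise alone gives (chi-square per gene 1.28 to 1.6 over 2252 genes). A legend in the supplement of the study calls the replicates of these cells biological, while neither it nor the labels tie each to a separate animal, so p-values measure the spread between these libraries. Without molecular identifiers, intervals and floors from counts hold for counting error only. Promoter sequences are from RefSeq (GRCm38.p6).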

Additional observations from a re-analysis of the deposited data

How the results depend on the processing

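The number of pacemaker cell genes called, 4 in the edgeR analysis, was 2 with DESeq2 and 2 at an adjusted p under 0.01, and 2 to 4 when single libraries were left out, with 2 without WT replicate 2, without WT replicate 3 or without cKO replicate 1. Hcn2 and Hcn4 kept their direction and call in every alternative that tested them, with log2 fold changes of −2.03 to −1.68 and −1.15 to −0.83. The log2 fold change of Kit was 0.44 with DESeq2 without a call and 0.38 to 0.53 over fits that left out 1 library, and that of Etv1 was 0.64 with DESeq2 and 0.63 without a filter on low counts, both uncalled, and 0.56 to 0.73 over such fits. Hcn3 was called with limma-voom (−1.06) and ranged from −1.46 to −0.70 over fits without 1 library. Kitl ranged from −0.22 to 0.087 over them, the positive value being the fit without cKO replicate 2. The causes were not tested. At a limit of 2 CPM, 3 members were above it in all libraries, and 5 at 0.5 CPM. With at least 10 counts in every library, Hcn2 and Hcn3 could not be tested.

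Same-numbered libraries did not deviate together (correlations −0.0316, 0.0442 and 0.111), and the labels give no shared litter or day. With the replicate block 4 members were called, as without it, and 6908 of all genes in place of 6723, and Tbx3 gained a call (−0.18). Among all genes 5535 were called with DESeq2, 4665 at an adjusted p under 0.01 and 5532 to 7054 without single libraries. For 49 other genes followed, 656 of 682 values kept direction and call, 16 lost and 7 gained a call, and 3 turned sign, none of them called. These were Pmel (−0.43 to 0.50 without single libraries, above 0 without WT replicate 3 or cKO replicate 2, at 0.30) and Col1a1 (−0.013 to 0.15, below 0 without WT replicate 3). Hcn2 and Hcn3 rest on 3 to 15 counts per library and Etv1 on 22 to 40.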
